A study of Mus musculus with 2 samples.

Results

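Interferon-stimulated genes are switched on when a cell senses an interferon, and 37 of them were followed here: 24 that answer mainly to type I interferons and 13 that answer mainly to interferon gamma. They were taken by symbol from the 28692 genes of the deposited matrices. All 37 symbols were found, on 38 gene identifiers, because Gbp6 stands under an identifier with 0 UMIs (unique molecular identifiers, each a counted transcript) in both libraries and under another that was detected. The empty identifier is left out of the medians and counts below.

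The cells came from the lungs of Lepr-Cre;Rosa26-tdtomato mice aged 8 to 10 weeks. In these mice a Cre recombinase under Lepr, the leptin receptor gene, turns on a red reporter for good, so that the reporter marks cells with Lepr activity then or in their forebears. Both groups carried these alleles, and 1 group received saline and the other bleomycin, a DNA-damaging drug that injures the lung and leads to fibrosis. Reporter-positive cells were collected by sorting, and transcript 3′ ends were sequenced from droplets, in 1 library per group. The number of mice in a library, the bleomycin dose and the time of collection are not stated in the labels.

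Type I interferons bind a receptor made of Ifnar1 and Ifnar2, and its kinases Jak1 and Tyk2 set off a complex that holds Stat2 and Irf9 and binds a promoter element called ISRE. Interferon gamma, made mostly by T cells and natural killer cells, binds Ifngr1 and Ifngr2, and signals through Jak1 and Jak2 to genes with an element called GAS. Among these is Irf1, a factor that binds ISRE-like elements, so the target lists of both pathways overlap. The type I targets hold antiviral proteins such as the Ifit, Ifitm, Oas and Mx families, and the gamma targets hold GTPases that attack parasites within cells, subunits of the immunoproteasome and the factors Irf1 and Irf8.

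Short stretches of promoters of some members are shown here, chosen because they carry these elements. They come from RefSeq promoters on GRCm38 (mm10) and run 5′ to 3′ on the gene's strand. Capitals mark each match of GAAANNGAA (the core of ISRE) or TTCNNNGAA (GAS) on either strand, and neighbouring matches can overlap and then read as 1 run.
Ifit1, chr19:34640765-34640828, plus strand: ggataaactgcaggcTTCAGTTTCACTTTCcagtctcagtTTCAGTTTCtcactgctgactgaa
Ifit3, chr19:34583359-34583450, plus strand: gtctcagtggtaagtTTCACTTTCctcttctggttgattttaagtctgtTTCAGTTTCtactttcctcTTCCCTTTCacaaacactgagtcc
Isg15, chr4:156200861-156200911, minus strand: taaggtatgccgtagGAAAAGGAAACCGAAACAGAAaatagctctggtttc
Gbp2, chr3:142620590-142620628, plus strand: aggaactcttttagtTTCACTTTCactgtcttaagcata
Gbp3, chr3:142559985-142560029, plus strand: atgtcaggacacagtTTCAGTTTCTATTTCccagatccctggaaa
Igtp, chr11:58199496-58199545, plus strand: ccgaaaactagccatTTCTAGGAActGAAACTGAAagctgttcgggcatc
Irf1, chr11:53769909-53769947, plus strand: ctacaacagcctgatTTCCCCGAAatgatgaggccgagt
Irf8, chr8:120736172-120736228, plus strand: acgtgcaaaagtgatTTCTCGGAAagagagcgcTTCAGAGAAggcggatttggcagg

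Of the 37 members 28 matched a promoter of the RefSeq table. Within the 250 bases before the start, GAAANNGAA stood in 8 of 18 type I promoters (44.4%) and in 5 of 10 gamma-type promoters (50%), against 2211 of 27025 genes of the table (8.18%). TTCNNNGAA stood in 4 of 18 type I promoters (22.2%) and in 5 of 10 gamma-type promoters (50%), against 2197 genes of the table (8.13%). In Bst2 the matches of the 2 motifs overlap. Ifitm1, Psmb9 and Ifi47, which fell in fibroblasts, had no match of either motif there. These are matches of letters, and a match does not show that a factor binds there.

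The saline library held 37570380 UMIs over 5455 barcodes and the bleomycin library 61537182 over 4473, and 5195 and 4308 barcodes were kept as cells (median 6300 and 12271 UMIs). The libraries share 33 barcodes. Clusters carry the type whose markers they resemble, so each type name below means cells like that type. Fibroblasts (3570 saline and 3516 bleomycin cells), endothelial cells (149 and 184) and alveolar macrophages (637 and 332) are compared. The fibroblast clusters had fibroblast markers such as Col1a1, Dcn and Pdgfra in a mean share of 0.755 to 0.858 of their cells, the endothelial clusters their own markers in 0.762 and 0.818, and the macrophage clusters immune markers in 0.849 to 0.903. Fibroblasts and macrophages of the 2 libraries lay in different clusters: macrophages were mostly cluster 6 in saline and cluster 21 in bleomycin, both led by Chil3. In sums over a class, fewer expressing cells and less RNA per cell cannot be told apart. The endothelial class held 19 saline and 70 bleomycin lymphatic cells, and the general capillary cells numbered 130 and 114.

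A level is given in UMIs per 1000000 UMIs of that cell class and library (UPM). These counts are not scaled by length, so levels are compared for 1 gene between samples and not between genes. With 1 library per group there is no spread between animals and no test. Intervals are 95% and cover counting error only. The words rose and fell are kept for genes where the higher library had at least 50 UMIs and 20 UPM and the ratio was at least 2-fold, and log2 ratios are bleomycin over saline with 1 UPM added to each level.

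In fibroblasts the members parted by interferon type. Of the 11 gamma-type members with enough UMIs for the rule 10 fell, 0 rose and 1 did neither. Of the 16 such type I members 1 fell, 1 rose and 14 did neither. Among all 5885 genes with enough UMIs 9.74% fell and 6.19% rose. The median log2 ratio was -1.78 over 13 gamma-type genes, -0.18 over 24 type I genes and -0.04 over all 13948 genes with at least 20 UMIs. Together the gamma-type members took 908 UPM of saline fibroblasts and 284 UPM of bleomycin fibroblasts. The type I members took 5458 and 4098 UPM, of which Ifitm3 alone made up 45.1% in saline.

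The transcription factors among the gamma-type members were Irf1 and Irf8. Irf1, which interferon gamma induces and which in turn drives many gamma targets, stood at 109 UPM in saline (interval 105 to 113) and 25.3 in bleomycin (23.97 to 26.7), a log2 ratio of -2.06. Irf8, best known for guiding myeloid cells and B cells, stood at 102 UPM (98.2 to 106) and 21.6 (20.4 to 22.9), a log2 ratio of -2.19. The Irf8 share of fibroblasts was above that of a type that should lack the gene: after thinning each cell to 2000 UMIs, 17.98% of saline fibroblasts had an Irf8 UMI (16.7 to 19.3) against 0.641% of saline epithelial cells (0.132 to 1.86), with median depths of 6835 and 5854.5 UMIs before thinning. The unthinned shares were 44.0% and 1.92%.

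The guanylate-binding proteins, GTPases that gather on membranes around microbes, fell in each of the 3 cases with enough UMIs. Gbp2 went from 116 UPM (112 to 120) to 22.3 (21.0 to 23.6), a log2 ratio of -2.33, the largest among the members that passed the rule in fibroblasts. Gbp3 went from 36.1 to 10.7 UPM (-1.66) and Gbp7 from 46.1 to 15.2 UPM (-1.54). Gbp4 was too low for the rule, with 210 saline UMIs (8.14 UPM) and 25 bleomycin UMIs (0.480 UPM), and so was Gbp6 with 109 and 27 UMIs. Gbp, Ifit and Ifitm genes have close relatives nearby in the genome, and the counting of reads shared by such copies is not stated in the labels, so single values within these families are uncertain.

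The immunity-related GTPases, a family that acts against parasites within cells, fell in 3 of 4 cases. Igtp went from 51.1 UPM (48.4 to 53.9) to 10.4 (9.58 to 11.4), a log2 ratio of -2.19. Iigp1 went from 206 to 92.6 UPM (-1.15) and Ifi47 from 31.5 to 13.8 UPM (-1.14). Irgm1 did not reach 2-fold, with 21.9 and 13.1 UPM (-0.70). The immunoproteasome subunits, which reshape the peptides shown to T cells, both fell. Psmb9 went from 60.8 UPM (57.8 to 63.8) to 11.4 (10.5 to 12.4), a log2 ratio of -2.31, and Psmb8 from 116 UPM (112 to 120) to 46.1 (44.3 to 48.0), a log2 ratio of -1.31.

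Among the type I members in fibroblasts, Ifit1 was the member that rose and Ifitm1 the member that fell. Ifit1, which binds viral RNA that lacks a host cap, went from 10.9 UPM (9.69 to 12.3) to 26.6 (25.3 to 28.1), a log2 ratio of 1.21. Ifitm1, a membrane protein that hinders viral entry, went from 506 UPM (497 to 514) to 108 (106 to 111), a log2 ratio of -2.21. Its neighbours Ifitm2 and Ifitm3 stayed under 2-fold, at -0.21 and -0.29. Within adventitial fibroblasts Ifitm1 stayed under 2-fold (-0.74).

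The other type I members stayed within 2-fold or below the rule in fibroblasts. Ifit3 had 23.4 and 29.9 UPM (0.34), and Isg15, a ubiquitin-like tag, 42.9 and 57 UPM (0.40). Of the type I transcription factors, Irf7, which amplifies type I interferon production, had 20.5 and 26.0 UPM (0.33), Irf9 23.8 and 18.3 UPM (-0.36), and Stat2 17.1 and 8.34 UPM (-0.96), too low for the rule. Isg20, Ly6e, Bst2, Ifi35 and Ifi27 had ratios from -0.92 to -0.68, and Rtp4, Zbp1 and Xaf1 ratios from -0.29 to 0.02. Ifit2, Oasl2, Usp18, Rsad2, Ifi44, Oas1a and Mx1 were too low for the rule, at 20 UPM or less in both libraries. Of the 112 saline Rsad2 UMIs 67.0% came from 1 cell.

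**Figure D1:**
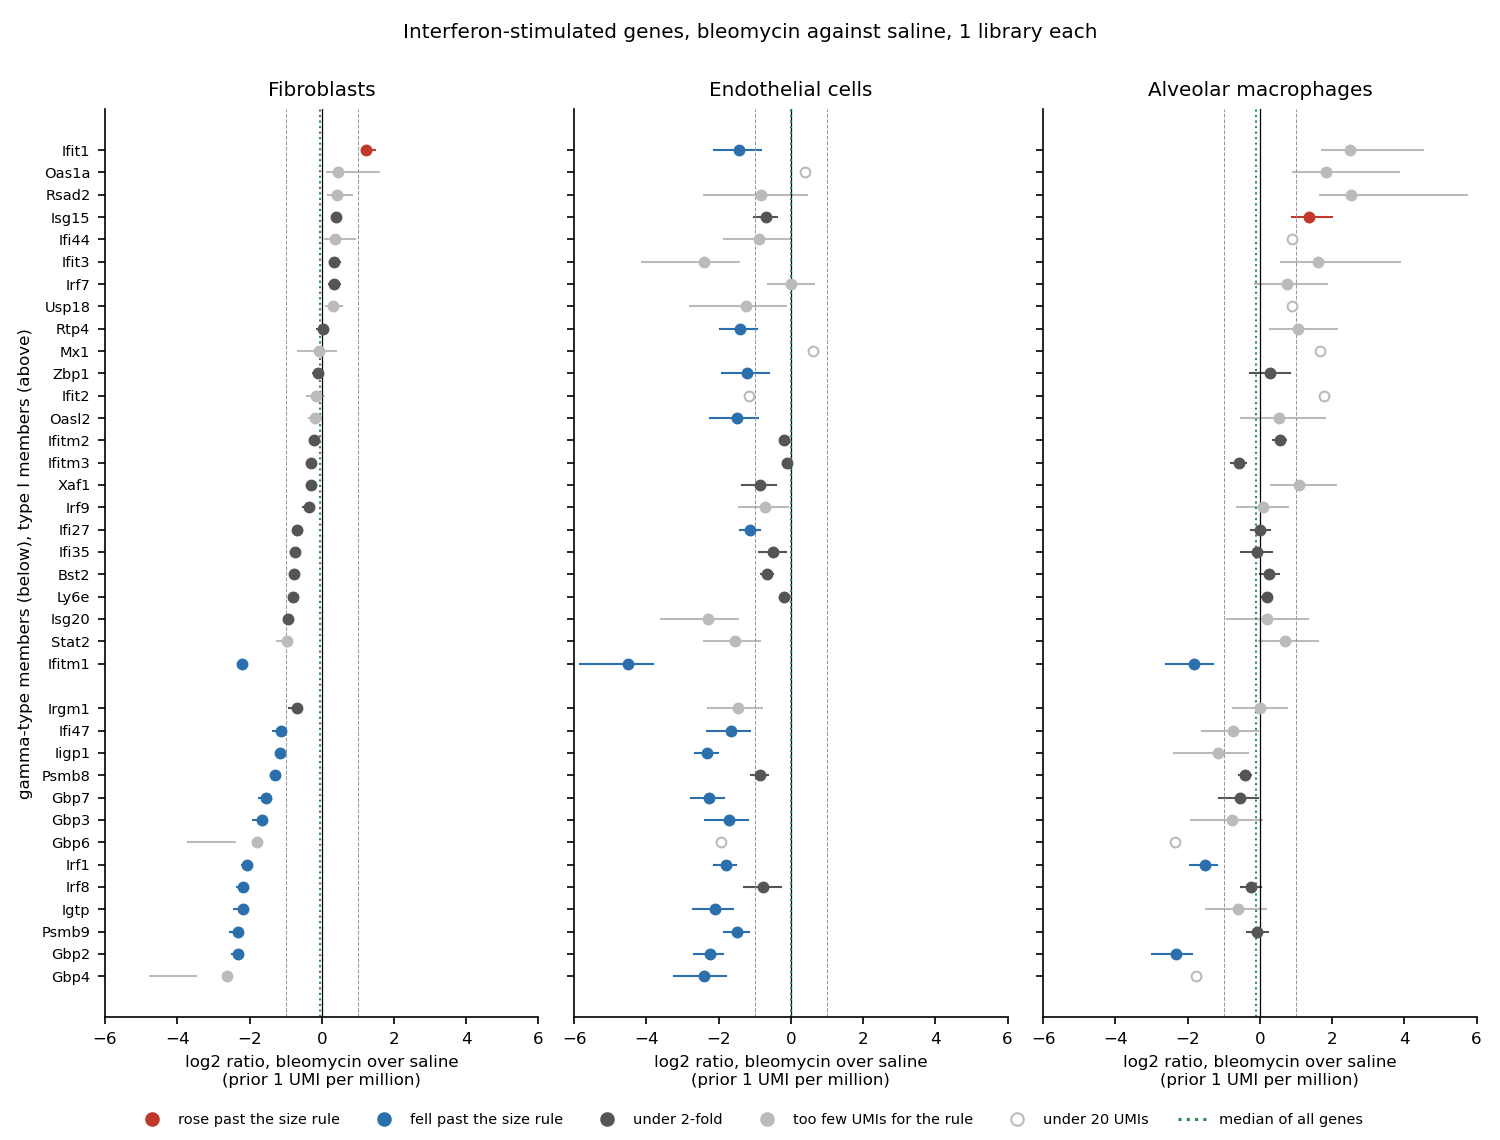
Log2 ratio of bleomycin over saline for each detected member in fibroblasts, endothelial cells and alveolar macrophages, with type I members above and gamma-type members below, ordered by their ratio in fibroblasts. Bars are 95% intervals of the plain ratio (counting error only, drawn for genes with at least 20 UMIs), so the point of a rare gene, which has 1 UPM added, can lie beside its bar. In fibroblasts the 13 gamma-type members all lie left of 0, and of the 24 type I members 9 lie right and 15 left of 0.

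Other genes of the pathway were taken from lists outside the members. Of 22 other gamma targets with enough UMIs in fibroblasts 17 fell and 0 rose, where 9.74% of all genes fell and 6.19% rose, with a median log2 ratio of -1.37 over 31 genes. Within states the count was lower: 8 of 20 fell in alveolar fibroblasts (median -0.56; 3.09% of all genes) and 14 of 24 in adventitial fibroblasts (median -1.10; 7.1% of all genes). Those that fell in the pooled fibroblasts included Cd74, the chaperone of class II antigen presentation (94.3 to 12.7 UPM, -2.80), the class I genes H2-K1 (747 to 154 UPM, -2.27) and H2-D1 (1532 to 375 UPM, -2.03), and the GTPase Irgm2 (28.9 to 6.8 UPM, -1.94). The chemokine genes Cxcl9 (73.3 to 16.3 UPM, -2.10) and Cxcl10 (220 to 84.0 UPM, -1.38) also fell. Cxcl9 did so in adventitial fibroblasts (-6.19), whereas in alveolar fibroblasts it was too low for the rule, at 9.67 and 12.9 UPM. Of 15 other type I targets 3 fell and 1 rose, with a median of -0.28 over 49 genes. In alveolar fibroblasts 1 of 14 fell and 1 rose (3.09% and 1.71% of all genes), with a median of -0.01. In adventitial fibroblasts 1 of 15 fell and 2 rose (7.1% and 2.68% of all genes), with a median of 0.02. Sp100 (-1.24) and Mndal (-1.02) were among those that fell in the pooled fibroblasts, though both stayed under 2-fold within each state, and the one that rose was Mnda (13.9 to 36.3 UPM, 1.32).

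Of 5 receptor genes with enough UMIs 1 fell, which was Ifnar2 (206 to 100.2 UPM, -1.03), where 9.74% of all genes fell. Ifnar2 fell in adventitial fibroblasts (-1.06) and stayed under 2-fold in alveolar fibroblasts (-0.39). Ifnar1 (21.3 and 23.5 UPM), Ifngr1 (291 and 197 UPM), Ifngr2 (57.4 and 65.3 UPM) and Il10rb (49.2 and 46.8 UPM) did neither. Jak1 (121 and 78.8 UPM), Jak2 (15.1 and 25.6 UPM) and Stat3 (137 and 113 UPM) did neither, and Tyk2 (5.81 and 4.22 UPM) was too low for the rule. Of 8 negative regulators with enough UMIs 3 fell, namely Socs1 (42.4 to 14.7 UPM, -1.47), Socs3 (528 to 190 UPM, -1.47) and Irf2bp2 (99.0 to 49.0 UPM, -0.9997). Within states 0 of 8 fell in alveolar fibroblasts (3.09% of all genes), and 1 of 8, Socs1 (-1.08), in adventitial fibroblasts (7.1% of all genes). Of 17 sensors and adaptors of nucleic acids 3 had enough UMIs and did neither, among them Tmem173 (14.5 and 27.2 UPM, 0.86), which encodes STING.

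Transcripts of the interferons themselves were close to absent among the sorted cells. Over all cells Ifng had 9 saline and 4 bleomycin UMIs. Ifnb1, Ifna1, Ifna2, Ifna4, Ifna5, Ifne and Ifnl3 had 0 in both, which allows up to 0.105 UPM in saline and 0.0628 in bleomycin as upper 95% bounds. Of the cytokines that raise interferon gamma in lymphocytes, Il18 had 1537 and 1267 UMIs (43.7 to 21.6 UPM, -0.99), Il12a 387 and 156 UMIs, Il12b 10 and 1 UMIs and Il27 9 and 8 UMIs over all cells. Sums over all cells depend on the mix of cell classes as well as on the level within each, and bare UMI counts also on depth. The mix differed: alveolar macrophages were 12.3% of saline and 7.71% of bleomycin cells, and epithelial cells numbered 468 and 5. A list of 10 genes of T cells and natural killer cells summed to 2.75 UPM in saline and 1.82 in bleomycin fibroblasts, so these cells' transcripts were near 0 in the fibroblast class.

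Other transcripts moved with the gamma-type members. All 10 immediate early genes on a list of genes that also answer to tissue digestion fell in fibroblasts and in endothelial cells, with summed levels of 15660 and 4659 UPM in fibroblasts (Fos -1.73, Egr1 -2.24, Atf3 -2.01). In alveolar macrophages 4 of the 10 fell, in alveolar fibroblasts 4 and in adventitial fibroblasts 8. Of all genes with enough UMIs 9.74% fell in fibroblasts, 10.3% in endothelial cells and 5.37% in alveolar macrophages. In alveolar fibroblasts 3.09% did, and in adventitial fibroblasts 7.1%. Plasma cell genes, chiefly immunoglobulin transcripts, summed to 97.99 UPM in saline and 4.93 UPM in bleomycin fibroblasts, to 83.6 and 7.48 UPM in endothelial cells and to 118 and 7.28 UPM in macrophages. The median mitochondrial share was 2.17% in saline and 2.05% in bleomycin cells. The part of these differences in the gamma-type result was not tested.

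Because the libraries hold different mixes of fibroblast states, the comparison was repeated within alveolar and adventitial fibroblasts. In alveolar fibroblasts (1895 saline and 334 bleomycin cells, mostly clusters 1 and 4 against cluster 17) 5 of 9 gamma-type members fell, against 3.09% of all genes with enough UMIs. They were Gbp2 (-1.81), Psmb9 (-1.52), Igtp (-1.44), Irf1 (-1.12) and Irf8 (-1.03). The gamma-type median was -1.03, and Gbp3, Gbp7, Psmb8 and Iigp1 stayed under 2-fold. Of 17 type I members 2 rose, against 1.71% of all genes: Ifit1 (8.3 to 27.7 UPM, 1.62) and Ifit3 (21.9 to 51.9 UPM, 1.21), while Ifitm1 fell (-1.18) and the median was 0.24.

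In adventitial fibroblasts (973 and 200 cells, mostly clusters 0 and 2 against cluster 18) 11 of 12 gamma-type members fell, against 7.1% of all genes with enough UMIs. The largest ratios there were those of Gbp4 (23.6 to 1.1 UPM, -3.58), Gbp2 (213 to 32.0 UPM, -2.70) and Igtp (81.8 to 12.6 UPM, -2.61), and the gamma-type median was -1.95. Of 17 type I members 0 rose and 0 fell, where 2.68% of all genes rose, and their median was 0.13. Ifit1 (19.4 and 31.5 UPM, 0.68) and Ifitm1 (806 and 483 UPM, -0.74) stayed under 2-fold there, so their calls in the pooled fibroblasts do not hold in this state. The median of the gamma-type members was thus below 0 in both states, and that of the type I members above 0.

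Across the fibroblast clusters of a library, which were built without the members and other interferon genes, the summed level ranged more widely for gamma-type than for type I members. Among the 5 saline clusters the summed gamma-type level was 623 UPM in cluster 4 (alveolar), 814 in cluster 1 (alveolar), 925 in clusters 0 (adventitial) and 3 (unnamed, led by Gsn, C3 and Cxcl14), and 1623 in cluster 2 (adventitial, with Saa3, Dcn and Pi16 among its leading genes). The summed type I level ran from 4780 UPM in cluster 3 to 6440 UPM in cluster 2. It follows mainly its most abundant members: in cluster 2 Ifitm3 alone stood at 2831 UPM. Across the saline clusters Ifitm3 ranged 1.44-fold and Ifitm2 1.43-fold. Single type I members ranged from 1.37-fold (Xaf1) upward, with Isg15 at 4.34-fold, so the narrow range of the sum does not hold for each member. Cluster 2 held the highest level of 11 of 13 gamma-type and 17 of 24 type I members. No UMI minimum was set for these counts, and Mx1 had 19 and Oas1a 10 UMIs in cluster 2. The share of all genes highest in that cluster was not computed. Clusters 0 and 3 had intervals that overlap for the gamma-type sum, and the other neighbours in that order did not.

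Ranges were ranked among members with at least 50 UMIs in their highest cluster. That minimum left out Gbp6, Oas1a, Mx1, Ifi44 and Usp18 in saline, and Gbp4, Gbp6, Oas1a, Mx1, Ifi44 and Stat2 in bleomycin. The 4 widest of each list in saline were highest in cluster 2. Gbp4 stood at 34.6 UPM there and 1.28 UPM in cluster 4, Ifi47 at 81.7 and 16.3 UPM, Gbp2 at 284 and 64.5 UPM, and Igtp at 109 and 32.3 UPM. Of the type I members Isg15 stood at 103 UPM in cluster 2 and 23.7 UPM in cluster 4, Zbp1, a sensor of left-handed nucleic acids, at 64.7 and 15.3 UPM, and Ifit1 at 25.9 UPM against 6.73 UPM in cluster 3. Rsad2, the antiviral viperin, had 23.7 UPM in cluster 2, but 5.58 UPM without the cell highest in type I members.

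Part of cluster 2 stood further apart. When barcodes with high doublet scores were kept, 93 saline cells led by Saa3, Cxcl10 and Cxcl13 formed a cluster of their own, with no bleomycin cell in it, and 82 of them lie in cluster 2 here. Their type I sum was 11046 UPM and their gamma-type sum 3525 UPM. Gbp2 stood at 780 UPM in them, Iigp1 at 761 UPM, Isg15 at 261 UPM, Cxcl9 at 1064 UPM and Cxcl10 at 2231 UPM. Without these cells 8 of 10 gamma-type members with enough UMIs fell in fibroblasts, where 9.78% of all genes fell, and the gamma-type median was -1.48.

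Among the 7 bleomycin clusters the gamma-type sum was highest in cluster 7 (unnamed, led by Saa3, Timp1 and Mfap5) at 557 UPM and lowest in cluster 23 (fibrotic, with Col1a1, Igfbp6 and Mmp3 among its leading genes) at 130 UPM. Clusters 17 (alveolar, 369 UPM), 18 (adventitial, 360 UPM) and 20 (fibrotic, led by Cthrc1, 327 UPM) lay between. The intervals of 17 and 18 overlap, as do those of 18 and 20, and after thinning the order of these 3 turned to 18 (421 UPM), 20 (366) and 17 (330). The thinned sums rest on fewer UMIs and were given no intervals, so nothing is read from this change of order. The intervals also overlap for 16 (fibrotic, 205 UPM) and 22 (unnamed, led by Eln, 192 UPM). Each of the 7 lay below each of the 5 saline clusters in its gamma-type sum, also after thinning (545 UPM in cluster 7 and 623 in cluster 4). The type I sums did not part in this way: clusters 17, 18 and 7 had 5726, 5301 and 5250 UPM, within the saline range, and the 3 fibrotic clusters and cluster 22 had 3080 to 4100 UPM, below it. In cluster 17 Ifitm3 stood at 2812 UPM and Ifitm2 at 1749 UPM, so the type I sums speak mainly for these genes.

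Cluster 18 held the highest bleomycin level of 14 of 24 type I and 5 of 13 gamma-type members, and cluster 7 that of 3 and 4. These counts had no UMI minimum: in cluster 18 Gbp4 and Gbp6 had 2 UMIs each, Mx1 7 and Oas1a 9. The share of all genes highest in each cluster was not computed. Ifitm1 stood at 482 UPM in cluster 18 and 15.6 UPM in cluster 20, the widest range of the named type I members, and Ly6e, a membrane protein, at 374 and 73.5 UPM in clusters 18 and 22. Rtp4 and Ifit3 stood at 43.6 and 56.5 UPM in cluster 18 and at 10.6 and 13.9 UPM in cluster 16. Of the gamma-type members Irf8 stood at 54.2 UPM in cluster 18 and 4.15 UPM in cluster 23. Iigp1 (251 UPM) and Psmb8 (89.4 UPM) were highest in cluster 7 and lowest in cluster 23, at 20.2 and 18.8 UPM. Ifi47 stood at 31.8 UPM in cluster 18 and 6.20 UPM in cluster 22.

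**Figure D2:**
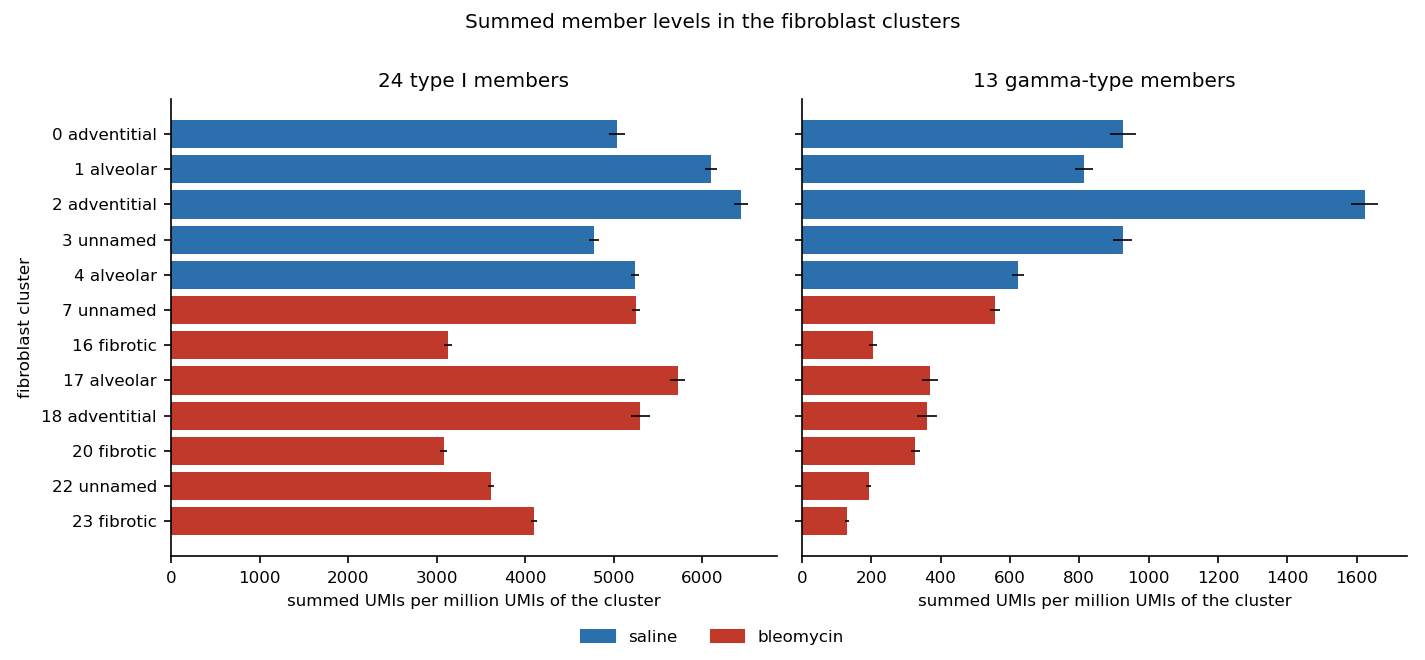
Summed level of the type I members (left) and the gamma-type members (right) in the 5 saline and 7 bleomycin fibroblast clusters with at least 50 cells, in UMIs per 1000000 UMIs of the cluster, with 95% intervals of counting error. Cluster 2 is highest on the right at 1623 UPM, and all bleomycin clusters lie at or below 557 UPM there, under the lowest saline cluster at 623 UPM.

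**Figure D3:**
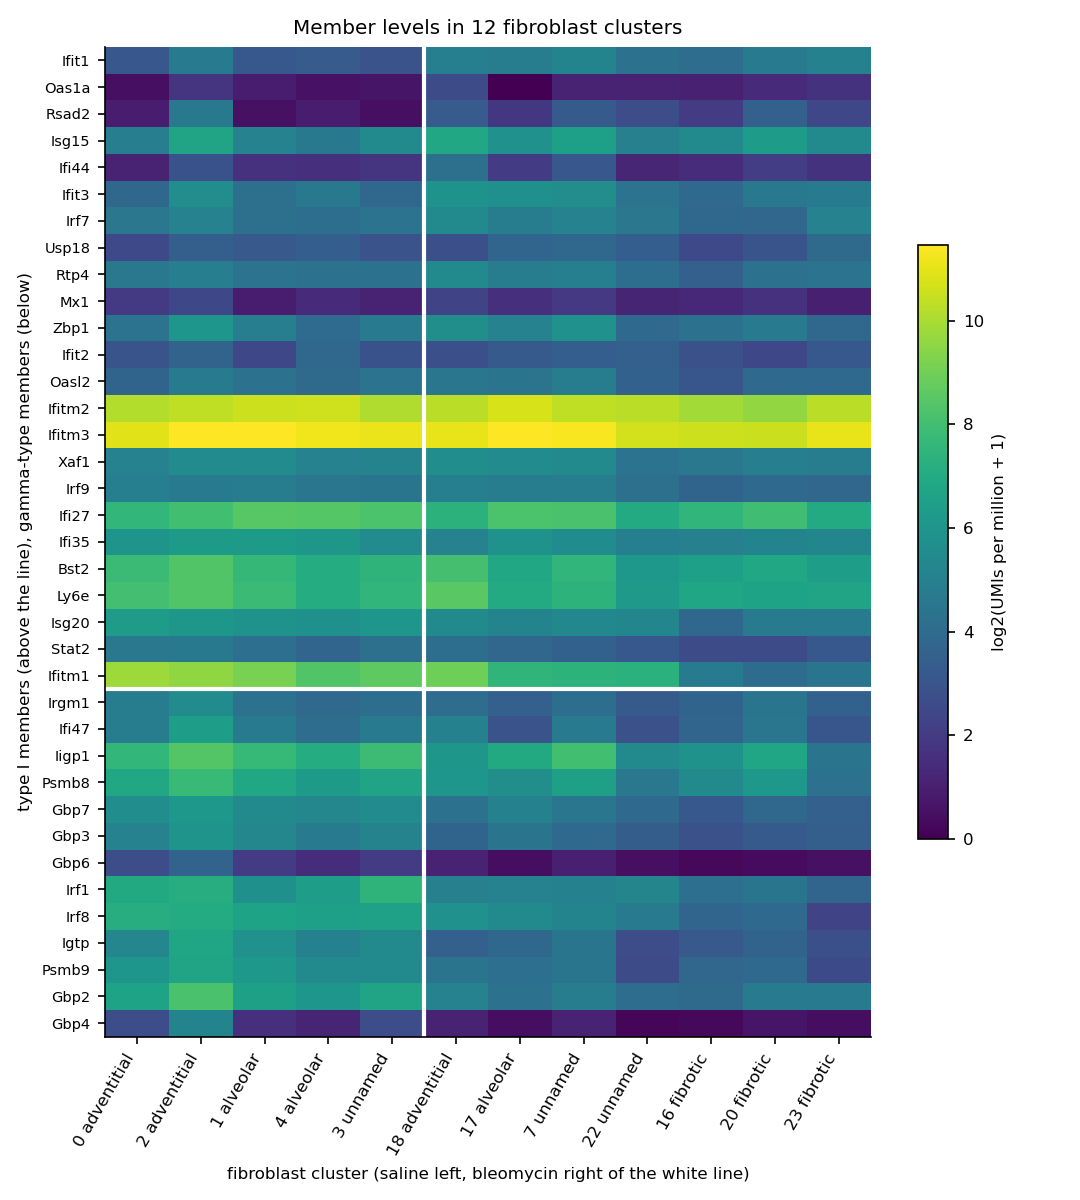
Level of each detected member in the 12 fibroblast clusters, as log2 of UMIs per 1000000 plus 1, with saline clusters left and bleomycin clusters right of the vertical line, type I members above and gamma-type members below the horizontal line. Colours compare clusters within a gene, not genes. Most gamma-type members are darker (lower) to the right of the line, while Ifit1 and Ifit3 are not.

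Cells were also compared at equal depth, after thinning each to 2000 UMIs. No gamma-type UMI was found in 32.3% of saline and 64.7% of bleomycin fibroblasts, in 10.7% and 39.1% of endothelial cells, and in 32.2% and 44.3% of macrophages. The top 5% of saline fibroblasts held 30.8% of the gamma-type UMIs and those of bleomycin 37.0%, against 13.1% and 14.2% of the type I UMIs. Such shares are larger where the mean per cell is lower, and the mean was 1.74 and 0.602 gamma-type and 10.8 and 8.47 type I UMIs. The variance over the mean was 4.24 and 2.35 for gamma-type and 3.48 and 3.57 for type I UMIs. It too depends on the mean per cell, so it does not show whether the cells of a library became more alike. A Gbp2 UMI was found in 14.1% of saline fibroblasts (12.9 to 15.2) and 4.21% of bleomycin fibroblasts (3.57 to 4.93), against 1.92% of saline epithelial cells (0.883 to 3.62); unthinned, the shares in fibroblasts were 33.2% and 19.1%. An Ifit1 UMI was found in 1.48% of saline (1.11 to 1.94) and 2.96% of bleomycin fibroblasts (2.42 to 3.57), against 0.641% of saline epithelial cells, and Isg15 in 6.08% and 6.57% of fibroblasts. Across cells of a library the summed type I and gamma-type UMIs at this depth had Pearson's r of 0.39 in saline and 0.38 in bleomycin fibroblasts (Spearman's rho 0.18 and 0.22, 3570 and 3516 cells that share a library), which is given as a description.

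**Figure D4:**
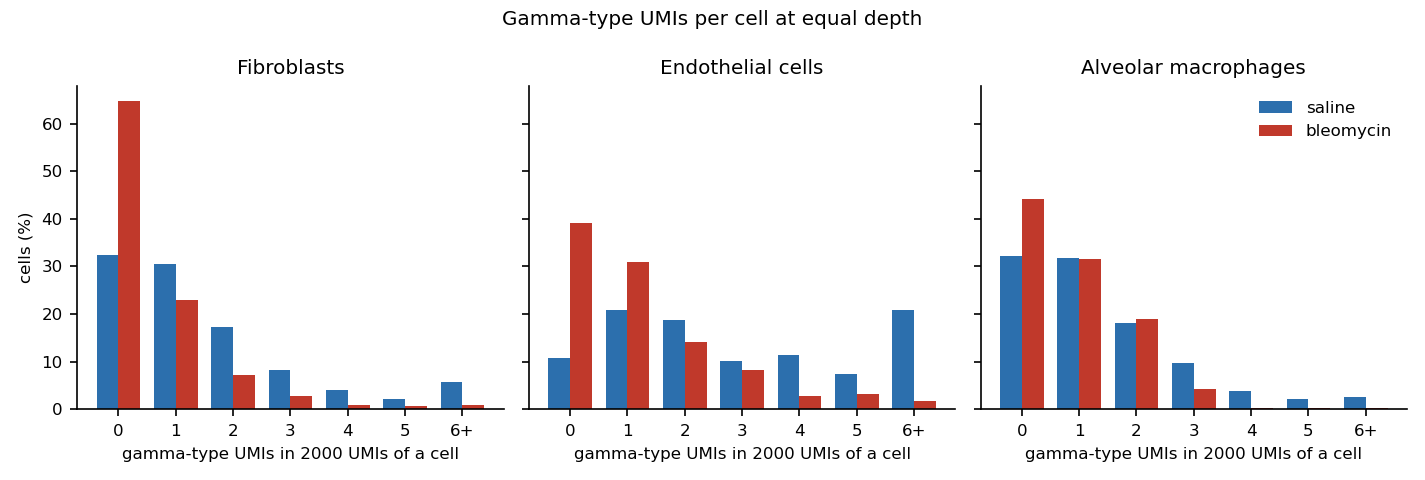
Percentage of cells with 0, 1, 2 and up to 6 or more UMIs of gamma-type members after thinning each cell to 2000 UMIs, in saline and bleomycin fibroblasts, endothelial cells and alveolar macrophages. Cells with 0 UMIs are 32.3% of saline and 64.7% of bleomycin fibroblasts.

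In endothelial cells members of both lists were lower in bleomycin. Of 11 gamma-type members with enough UMIs 9 fell and 0 rose, and of 13 type I members 6 fell and 0 rose, among genes of which 10.3% fell and 9.58% rose. The medians were -1.76 over 12 gamma-type and -0.87 over 21 type I genes, against -0.01 over all 9359 genes. The gamma-type sum was 1740 UPM in saline (1665 to 1817) and 541 in bleomycin (508 to 576). The type I sum was 7792 and 6364 UPM. All 10 immediate early genes fell in this class as well.

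Ifitm1 had the largest ratio in endothelial cells, with 167 saline UMIs (143 UPM, interval 122 to 166) and 10 bleomycin UMIs (5.34 UPM, 2.56 to 9.82), a log2 ratio of -4.50. Of its saline UMIs 17.4% came from 1 cell, and 12.1% of thinned saline endothelial cells had such a UMI (7.32 to 18.4), an interval that overlaps that of epithelial cells (7.69%, 5.45 to 10.5), against 0 of 184 bleomycin endothelial cells, which allows up to 1.98%. The next were gamma-type GTPases. Gbp4 went from 69.1 UPM (54.9 to 85.9) to 12.3 (7.79 to 18.4), a log2 ratio of -2.40, and Iigp1 from 282 UPM (252 to 314) to 56.1 (45.9 to 67.9), a log2 ratio of -2.31. Gbp7 went from 150.2 UPM (129 to 174) to 30.5 (23.1 to 39.4), a log2 ratio of -2.27, and Gbp2 from 185 UPM (161 to 212) to 38.5 (30.1 to 48.4), a log2 ratio of -2.24, with 24.9% of its saline UMIs in 1 cell.

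Irf1 fell in endothelial cells from 259 UPM (231 to 290) to 73.7 (61.9 to 87.1), a log2 ratio of -1.80, whereas Irf8 (60.6 and 35.3 UPM, -0.76) and Psmb8 (286 and 158 UPM, -0.86) stayed under 2-fold. Igtp (-2.10), Gbp3 (-1.72), Ifi47 (-1.66) and Psmb9 (-1.49) fell too. Of the type I members Oasl2 (-1.50), Ifit1 (-1.42), Rtp4 (-1.42), Zbp1 (-1.20) and Ifi27 (-1.13) fell. Ifit1 had 59 saline and 34 bleomycin UMIs, of which 67.6% in bleomycin came from 1 cell, and without the cell highest in type I members of each library its ratio was -2.86. Zbp1 had too few UMIs for the rule without those cells. Irf7 (31.6 and 31.5 UPM), Irf9 (34.1 and 20.3 UPM) and Stat2 (37.5 and 12.3 UPM) had too few UMIs for the rule. Ifitm2, Ifitm3, Ly6e, Bst2, Isg15, Xaf1 and Ifi35 stayed under 2-fold.

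The endothelial result was also looked at in general capillary cells alone, an alternative added after the data were seen. There 10 of 11 gamma-type members fell, against 9.12% of all genes with enough UMIs, with a median of -1.50. Of 12 type I members 4 fell, against the same 9.12%, and 0 rose, where 4.29% of all genes rose, with a median of -0.97. Irf8 fell there (50.3 to 16.8 UPM, -1.53), and so did Isg15 (141 to 64.1 UPM, -1.13), while Ifit1 (53.1 and 29.4 UPM) stayed under 2-fold. The type I sum was 7814 UPM in saline and 8053 UPM in bleomycin, so it was not lower in these cells, while Ifitm3 (3392 and 3941 UPM) and Ly6e (1388 and 1789 UPM) were above their saline levels.

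Outside the members, 14 of 23 other gamma targets with enough UMIs fell in endothelial cells and 0 rose. Of 18 other type I targets 10 fell and 0 rose, where 10.3% of all genes fell and 9.58% rose. In general capillary cells alone the counts were lower: 7 of 23 other gamma targets fell and 1 rose, and 5 of 16 other type I targets fell. Of all genes there 9.12% fell and 4.29% rose. Cxcl9 went from 127 UMIs (108 UPM) to 3 (1.60 UPM), with a log2 ratio of -5.39, and Cxcl10 from 168 to 9.62 UPM (-3.99). Serping1, an inhibitor of complement, went from 617 to 51.8 UPM (-3.55), and Cd74 from 2008 to 369 UPM (-2.44). Of the type I targets Ifi203 had the largest ratio (81.1 to 12.3 UPM, -2.63), followed by Slfn5 (-1.68) and Sp100 (-1.67). Socs1 (46.9 to 9.1 UPM, -2.25) and the receptor gene Ifngr1 (233 to 108 UPM, -1.10) fell, and Tmem173 rose (17.9 to 55.0 UPM, 1.57). In general capillary cells alone Socs1 fell (-1.95), Ifngr1 stayed under 2-fold (-0.78), Slfn5 (-0.91) and Sp100 (-0.88) did too, and Tmem173 was too low for the rule (16.5 and 33.6 UPM).

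In alveolar macrophages, the resident macrophages of the air spaces, fewer members passed the rule. Of 6 gamma-type members with enough UMIs 2 fell and 0 rose, and of 9 type I members 1 fell and 1 rose, among genes of which 5.37% fell and 2.98% rose. The medians were -0.59 over 11 gamma-type and 0.53 over 20 type I genes, against -0.11 over all 9212 genes. The type I median rests in part on 1 cell, which held 22.1% of the bleomycin UMIs of 18 type I members, and it was 0.23 without the cell highest in type I members of each library. Scaling by the median ratio of all genes in place of total UMIs moved that median of all genes from -0.11 to -0.0049, and counts of all genes from 276 fallen and 153 risen to 211 and 196, while the counts of members risen and fallen were the same.

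Gbp2 fell in macrophages from 73.0 UPM (63.5 to 83.5) to 13.7 (9.37 to 19.3), a log2 ratio of -2.33. Irf1 fell from 103 UPM (91.6 to 115) to 35.1 (27.9 to 43.6), a log2 ratio of -1.53. Irf8, a factor of the macrophage lineage, had 98.8 and 83.5 UPM (-0.24), and Psmb8 (269 and 201 UPM), Psmb9 (82.3 and 78.3 UPM) and Gbp7 (29.6 and 19.7 UPM) also stayed under 2-fold. Isg15 was the member that rose, from 14.1 UPM (10.1 to 19.2) to 38.1 (30.6 to 46.9), a log2 ratio of 1.37. The call was lost with each cell thinned to 2000 UMIs (1.51, too few UMIs), with each library clustered alone (0.43) and with doublets kept (0.69). Of its 89 bleomycin UMIs 23.6% came from 1 cell. Without the cell highest in type I members the log2 ratio was 0.996 (14.15 and 29.2 UPM). That kept the call narrowly, because the rule uses the ratio without the added 1 UPM. A thinned share of 2.51% of saline macrophages (1.44 to 4.05) and 6.02% of bleomycin macrophages (3.72 to 9.15) had an Isg15 UMI, against 0.427% of saline epithelial cells.

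Ifitm1 fell in macrophages from 40.6 UPM (33.6 to 48.7) to 10.7 (6.92 to 15.8), a log2 ratio of -1.83. Its thinned share in saline macrophages was 8.16% (6.16 to 10.6) against 7.69% in saline epithelial cells (5.45 to 10.5), at median depths of 4161 and 5854.5 UMIs before thinning (16.01% and 19.7% unthinned), so the intervals of both types overlap and nothing is read from this ratio about macrophages. In saline smooth muscle cells the thinned share was 4.85% (1.59 to 10.97). Ifit1 had 6 saline and 38 bleomycin UMIs, with 68.4% of the latter in 1 cell, and Rsad2 3 and 25 UMIs, with 76.0% in 1 cell. Irf7 (5.51 and 9.84 UPM), Irf9 (13.8 and 14.6 UPM) and Stat2 (8.26 and 14.1 UPM) were too low for the rule. Among other gamma targets 5 of 21 fell and 0 rose, with Cxcl9 (67.1 to 10.7 UPM, -2.54) the largest, while Cxcl10 (36.5 and 34.7 UPM) stayed under 2-fold. Of 21 other type I targets 3 fell and 0 rose, where 5.37% of all genes fell and 2.98% rose.

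Levels were also set in order over fibroblasts, endothelial cells, macrophages, smooth muscle cells and, in saline, epithelial cells. In saline, endothelial cells had the highest level of 12 of 13 gamma-type and 17 of 24 type I members, and fibroblasts of 1 and 6. In bleomycin endothelial cells were highest for 8 of 13 gamma-type and 8 of 24 type I members, with epithelial cells, at 5 cells, not counted. No UMI minimum was set for these counts, and the share of all genes highest in each class was not computed. For Gbp2 the saline order was epithelial cells (9.33 UPM), smooth muscle cells, macrophages (73.0), fibroblasts (116) and endothelial cells (185), and in bleomycin macrophages (13.7), fibroblasts (22.3), smooth muscle cells and endothelial cells (38.5). Pericytes, with 50 saline cells, had sums of 8774 UPM for type I and 2650 UPM for gamma-type members, above those of endothelial cells. In smooth muscle cells (103 and 98) the gamma-type sum was 263 UPM in saline and 261 UPM in bleomycin, with intervals that overlap, and the type I sum 1830 and 4002 UPM. Members went both ways within that gamma-type sum: Iigp1 rose from 45.8 to 102 UPM, and Irf1 had 49 and 18 UMIs (83.0 and 22.4 UPM), too few for the rule.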

How the data were processed

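For 1 saline and 1 bleomycin library the authors deposited UMI counts, neither scaled nor transformed. Per the submitters' processing notes the authors made them with Cell Ranger 2.1.1 on mm10; how barcodes were called as cells and the annotation release are not stated in the labels. Barcodes with at least 500 genes, 1000 UMIs and at most 10% mitochondrial UMIs were kept. Scrublet marked only 0.626% and 0.112% of barcodes on its own threshold, so the 237 and 160 highest scores, 0.8% per 1000 barcodes, were left out. Cells were clustered without integration (scanpy 1.11.5; 2000 variable genes, 30 components, 15 neighbours, Leiden resolution 1), with interferon genes removed, and named from marker lists by thresholds chosen after clusters were seen. Levels have exact Poisson, ratios exact conditional binomial and shares Clopper-Pearson intervals.

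The members and lists were chosen with earlier results of these data known. Full values are given for the 10 members with the largest ratio past the size rule in fibroblasts, 5 in the other classes, the transcription factors, and the 4 per list with the widest range across clusters among those with at least 50 UMIs in the highest; outside lists give up to 6. The immediate early, T cell and plasma cell lists were added after the data were seen. The computation was checked on counts with known folds. Promoter matches used the RefSeq table of GRCm38.p6. 1 gene of the pathway lists is not reported here.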

Additional observations from a re-analysis of the deposited data

Results flagged for a closer look

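Ifit1 went opposite ways in fibroblasts and endothelial cells. Its log2 ratio of bleomycin over saline was 1.21 in fibroblasts and -1.42 in endothelial cells, where 1 cell held 67.6% of the 34 bleomycin UMIs. Without the cell highest in type I members of each library the endothelial ratio was -2.86. Ifit1 rose in alveolar fibroblasts, but stayed under 2-fold in adventitial fibroblasts and in general capillary cells alone. With 1 library per group the difference between the 2 classes was not tested.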

How the results depend on the processing

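With 1 library per group no spread between animals can be given, and only counting error stands behind each interval. Under the alternatives 185 counts and medians of members stayed close to the reported ones, 16 moved and 3 changed sign. Part of the 185 could not differ: adding 5 UPM in place of 1 leaves the counts as they are, because the rule uses the plain ratio. Clusters built with the interferon genes left in gave the same endothelial and macrophage values as the main clusters. In fibroblasts the type I median changed sign to 0.0142 when each cell was thinned to 2000 UMIs, 0.24 in alveolar and 0.13 in adventitial fibroblasts alone. Type I members fallen numbered 2 of 16 thinned (8.66% of all genes) and 0 of 17 in adventitial fibroblasts (7.1%). Those risen numbered 2 of 17 in alveolar (1.71% of all genes) and 0 of 17 in adventitial fibroblasts (2.68%). The gamma-type members fallen numbered 5 of 9 in alveolar fibroblasts (3.09% of all genes), with a median of -1.03. In thinned endothelial cells fewer genes had enough UMIs, and 1 of 5 type I and 4 of 5 gamma-type members fell (8.99% of all genes). When each library was clustered alone 3 of 10 type I members fell in endothelial cells (10.2% of all genes). The endothelial type I median was -0.64 with no doublets left out. In macrophages 0 type I members rose when thinned, when each library was clustered alone or with doublets kept, where Isg15 had 1.51, 0.43 and 0.69; the type I median was 0.14 thinned, and 2 of 9 type I and 4 of 8 gamma-type members fell when each library was clustered alone (8.21% of all genes), with medians of 0.19 and -1.08. Of the sums over fibroblast clusters 14 lay outside the counting interval of the unthinned sum when thinned and 10 did not. The larger counting error of the thinned sums themselves was not computed. The cause of these changes was not tested. The alternatives without the highest cell and of general capillary cells alone were chosen after seeing the data. No paired analysis was possible because each group has 1 library.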
